A study of Mus musculus with 6 samples.

Results

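The 9 genes described here make, bind or break down retinoic acid: the uptake receptor gene Stra6, the retinol dehydrogenase genes Rdh10 and Rdh11, the retinaldehyde reductase gene Dhrs3, the retinaldehyde dehydrogenase genes Aldh1a1 and Aldh1a2, the breakdown gene Cyp26b1 and the binding protein genes Crabp1 and Crabp2. They were picked out of the tables by symbol, and all 9 are among the 11736 genes with values. The samples were gonadal somatic cells from XY C57BL/6 mouse embryos at stage E11.5, in 3 libraries with the genotype Cdyl-Het and 3 with the genotype Cdyl-KO, which the series text describes as heterozygous and homozygous deficiency of Cdyl. Cdyl encodes a chromodomain protein that takes part in transcriptional repression. All 6 libraries also carry Nr5a1-hCD271, and the cells were those positive for hCD271 after magnetic separation, so both groups share the allele used for sorting and at least 1 deficient Cdyl allele, and no wild-type group enters the comparison. How Cdyl was mutated is not given in the sources read here. Nor do the labels say whether a sample was a single embryo, a pool or a litter, so the spread that the p-values rest on is that between these 3 samples of a group and may be technical.

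Retinoic acid is made from retinol in sequential oxidations, first to retinaldehyde and then, irreversibly, to the acid. It enters the nucleus with the help of binding proteins and acts through RAR and RXR receptors, while CYP26 enzymes oxidise it to inactive products. In the mouse fetal gonad, retinoic acid is known for its link to the entry of ovarian germ cells into meiosis, and Cyp26b1 in the somatic cells of the testis for degrading it there.

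Of the 9 genes, Cyp26b1 fell to a ratio of 0.546 of its Cdyl-Het mean in Cdyl-KO cells, and Dhrs3 and Crabp2 rose 1.43-fold and 1.62-fold. The other 6 did not pass the threshold (limma, Benjamini-Hochberg adjusted p under 0.05 over all genes). Among all 11736 genes, 4.67% were called higher and 2.83% lower, or 7.50% in either direction, against 2 higher and 1 lower among the 9. The members moved in both directions, and their median log2 change was 0.00, as was that of all genes. The groups did not overlap for 5 of the 9: Dhrs3, Crabp2, Aldh1a2 and Rdh11 were above the Cdyl-Het range in every Cdyl-KO library, and Cyp26b1 was below it. Over all genes, 17.0% had Cdyl-KO entirely above and 14.5% entirely below, or 31.6% in either direction. Values are scaled RPKM (reads per kilobase of exon and per 1 M reads of the library, divided by a scaling factor per library), so levels of different genes are per length. A log2 change is the difference between the group means of log2(scaled RPKM + 1), Cdyl-KO minus Cdyl-Het.

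**Figure D1:**
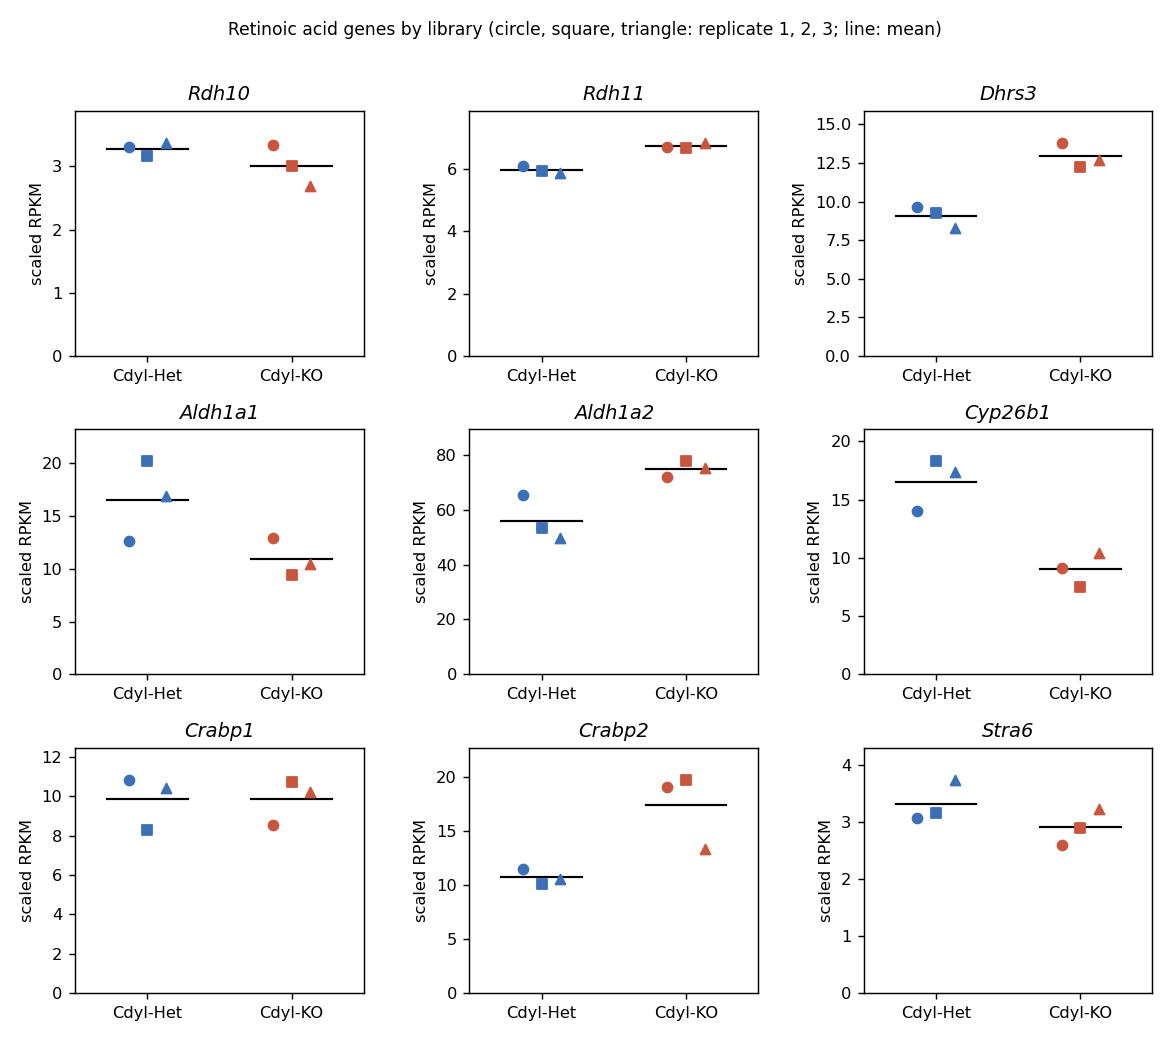
Scaled RPKM (y axis, linear from 0, with its own range in each panel) of the 9 genes in each of the 3 Cdyl-Het and 3 Cdyl-KO libraries. Symbols mark the replicate and lines the group mean. Cyp26b1 lies lower and Dhrs3, Crabp2, Aldh1a2 and Rdh11 lie higher in every Cdyl-KO library, and the groups overlap for the other 4.

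The steps between low values imply totals of 34.6 to 45.2 M reads per library, with Cdyl-Het replicate 1 the shallowest. At that depth the 9 genes rested on 270 implied reads (Crabp1 in Cdyl-Het replicate 2) to 7304 (Aldh1a2 in Cdyl-KO replicate 2) in a library. Most implied counts were even, so the number of separate fragments may be smaller. Among 5 markers of gonadal somatic cells all were present. Of these, 2 were higher in Cdyl-KO and 0 lower (limma), against 4.67% and 2.83% of all genes. The log2 changes of the 5 markers ran from -0.14 to 0.57. Their summed level was 294 to 338 scaled RPKM in Cdyl-Het, against 321 to 359 in Cdyl-KO. Cdyl itself was at 7.77, 8.06 and 8.22 in the former group and at 6.77, 6.93 and 7.07 in the latter (log2 change -0.19, limma adjusted p = 0.0702). Reads outside an altered part of the gene would not check the labels. Markers of germ cells (5), macrophages (7) and neural crest and nerve (4) are not among the genes listed. Both blood markers that are listed varied between libraries of a group, with sums of 29.1 to 165 in Cdyl-Het, against 32.0 to 90.8 in Cdyl-KO.

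Sequences immediately upstream of an annotated transcript start are shown for 4 genes: Cyp26b1 and Dhrs3, which both passed the threshold, and Aldh1a1 and Aldh1a2, which encode enzymes of the same step and differed in the sign of their change. They come from RefSeq (GRCm38.p6, the build of mm10), which held promoter windows for 7 of the 9 genes, with none for Rdh10 and Crabp2. For Cyp26b1, Dhrs3 and Aldh1a2 each stretch ends at the base before the start of the gene. That of Aldh1a1 lies inside the annotated gene and ends before the start of a shorter transcript at 20601961, while the longest transcripts start at 20492715. Each is written 5′ to 3′ on the gene's strand, and capitals mark TATAAA.
Cyp26b1, chr6:84593909-84594060, minus strand: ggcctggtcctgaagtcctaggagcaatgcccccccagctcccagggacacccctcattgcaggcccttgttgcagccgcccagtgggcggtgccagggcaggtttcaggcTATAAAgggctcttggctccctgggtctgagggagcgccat
Dhrs3, chr4:144892577-144892826, plus strand: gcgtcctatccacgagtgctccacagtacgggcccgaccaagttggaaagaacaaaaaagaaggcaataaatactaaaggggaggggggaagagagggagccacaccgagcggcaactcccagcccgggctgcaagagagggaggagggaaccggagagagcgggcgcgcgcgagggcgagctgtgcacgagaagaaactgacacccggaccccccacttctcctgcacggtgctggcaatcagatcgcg
Aldh1a1, chr19:20601718-20601960, plus strand: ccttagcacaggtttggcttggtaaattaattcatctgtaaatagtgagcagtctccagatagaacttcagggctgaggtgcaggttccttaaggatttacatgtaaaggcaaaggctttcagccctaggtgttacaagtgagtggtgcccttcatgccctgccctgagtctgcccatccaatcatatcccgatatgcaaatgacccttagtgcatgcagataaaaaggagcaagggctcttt
Aldh1a2, chr9:71215539-71215788, plus strand: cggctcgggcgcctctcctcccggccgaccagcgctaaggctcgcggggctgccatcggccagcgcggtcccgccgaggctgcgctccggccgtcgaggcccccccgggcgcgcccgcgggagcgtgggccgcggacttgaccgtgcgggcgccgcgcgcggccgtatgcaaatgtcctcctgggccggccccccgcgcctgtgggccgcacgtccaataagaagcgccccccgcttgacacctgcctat

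The stretch of Aldh1a2 was 77.6% G and C and that of Aldh1a1 46.1%, with Cyp26b1 at 65.1% and Dhrs3 at 61.6% between them. Motifs were searched in the 250 bases before each RefSeq start, in 32817 windows of all genes and 14 windows of the 7 genes. TATAAA on the gene's strand was in 7.60% of all windows and, among the 7 genes, in the window of Cyp26b1, 41 bases before its first annotated start. The nuclear receptor half-site AGGTCA, on either strand, was in 14.0% of all windows and in 1 window of Rdh11. The half-site AGTTCA (11.9% of all windows) and CAAGGTCA (1.34%), the form bound by NR5A1, which contains AGGTCA, were in none of the 14. Direct repeats of these half-sites, with A or G as the first base of each, spaced by 1, 2 or 5 bases, the arrangement RAR and RXR bind, were also in none of the 14, and in 0.165%, 0.174% and 0.0880% of all windows. These matches describe letters in a short window and say nothing of binding.

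Cyp26b1 (mm10 chromosome 6, 84571414 to 84593908, minus strand) encodes the cytochrome P450 that clears retinoic acid. Its level was 14.0, 18.3 and 17.3 scaled RPKM in Cdyl-Het replicates 1, 2 and 3, and 9.13, 7.52 and 10.5 in those of Cdyl-KO. Every Cdyl-KO library was below the lowest Cdyl-Het library, which was replicate 1. The mean fell from 16.5 ± 2.23 to 9.04 ± 1.47 (SD, n = 3 per group), a log2 change of -0.81 (SE 0.13, 95% interval -1.12 to -0.50, limma adjusted p = 0.0166). The sign was the same in all 19 alternative fits, from -0.94 to -0.62, with adjusted p between 1.29e-05 and 0.0742. The call was lost with any of 3 libraries left out, which were Cdyl-Het replicates 2 (0.0627) and 3 (0.0742) and replicate 1 of Cdyl-KO (0.0532).

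The fall of Cyp26b1 went with that of Sertoli cell markers. All 7 of the 9 markers that are listed were lower in Cdyl-KO (limma), Amh and Dhh are not analysed here, and their summed level was 86.1 to 125 scaled RPKM in Cdyl-Het, against 33.5 to 50.8 in Cdyl-KO. Sox9, which directs Sertoli cell differentiation, was at 43.3, 57.1 and 54.6 in Cdyl-Het, against 24.4, 20.2 and 30.8 in Cdyl-KO (log2 change -1.02, limma adjusted p = 0.0153). Within each library, Cyp26b1 over Sox9 was 0.324, 0.320 and 0.317 in Cdyl-Het, against 0.375, 0.373 and 0.339 in Cdyl-KO, with every Cdyl-KO ratio above the Cdyl-Het ratios. The log2 changes of the 7 markers ran from -2.02 to -0.79 with a median of -1.23, and Sox9 is the single one of them set against Cyp26b1 here. Relative to Nr5a1, a marker of gonadal somatic cells that did not pass the threshold (limma adjusted p = 0.383), Cyp26b1 was at 0.179, 0.194 and 0.204 in Cdyl-Het, against 0.118, 0.107 and 0.123 in Cdyl-KO, without overlap. Nr5a1 had the lowest log2 change (-0.14) of the 5 gonadal somatic markers, of which 2 were higher in Cdyl-KO (limma). Endothelial markers also moved, with 4 of the 8 that are listed (of 10) lower in Cdyl-KO, against 2.83% of all genes. The endothelial sums were 32.7 to 35.9 in Cdyl-Het, against 20.7 to 23.5 in Cdyl-KO. The part of these cell types in the values of Cyp26b1 was not tested, and in bulk RNA fewer cells of a type and less RNA per cell cannot be told apart.

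By the root mean square distance of centred log2 values over the 6 libraries, the genes nearest to Cyp26b1 among 6413 were Etv5 (0.0403), Smtnl2 (0.0701) and Kctd12 (0.0750). Etv5, a transcription factor of the ETS family, was at 16.6, 21.6 and 19.5 scaled RPKM in Cdyl-Het, against 9.95, 8.78 and 12.1 in Cdyl-KO. As with Cyp26b1, its lowest Cdyl-Het library was replicate 1 and its lowest Cdyl-KO library was replicate 2. Etv5 was picked for its likeness over these same libraries, so the shared order is part of that choice.

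Among the 9, none of the genes for retinol uptake and its oxidation to retinaldehyde passed the threshold. Stra6 encodes a membrane receptor for the plasma carrier of retinol (chromosome 9, 58063788 to 58153996, plus strand). It was at 3.07, 3.16 and 3.74 scaled RPKM in Cdyl-Het, against 2.60, 2.89 and 3.22 in Cdyl-KO (log2 change -0.15, SE 0.09, limma adjusted p = 0.370). The ranges overlapped. Rdh10, the main retinol dehydrogenase of the mouse embryo (chromosome 1, 16105774 to 16133734, plus strand), was at 3.31, 3.16 and 3.37 in Cdyl-Het, against 3.33, 3.005 and 2.68 in Cdyl-KO. Here too the groups overlapped (log2 change -0.10, SE 0.08, 95% interval -0.28 to 0.09, limma adjusted p = 0.481). Rdh11, a retinal reductase and dehydrogenase (chromosome 12, 79174337 to 79192293, minus strand), was at 6.10, 5.92 and 5.86 in Cdyl-Het, against 6.72, 6.68 and 6.84 in Cdyl-KO. Its groups did not overlap, and the spread within each was small, but the difference of 13.1% between means did not pass (log2 change 0.15, SE 0.05, limma adjusted p = 0.105).

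Dhrs3 encodes the reductase that turns retinaldehyde back into retinol and so opposes Rdh10 (chromosome 4, 144892827 to 144928209, plus strand). Its level was 9.64, 9.26 and 8.26 scaled RPKM among the Cdyl-Het libraries and 13.8, 12.3 and 12.7 among those of Cdyl-KO. The groups were well apart, and the mean rose from 9.05 ± 0.711 to 12.9 ± 0.793 (SD, n = 3 per group; log2 change 0.47, SE 0.07, 95% interval 0.30 to 0.64, limma adjusted p = 0.0139). With replicate 2 of Cdyl-Het left out the adjusted p was 0.0507, and with replicate 1 of Cdyl-KO left out it was 0.0506, the only 2 of 19 alternative fits in which the call was lost. The ratio of Dhrs3 to Rdh10 within a library was 2.91, 2.93 and 2.45 in Cdyl-Het, against 4.14, 4.08 and 4.74 in Cdyl-KO. All 3 Cdyl-KO ratios were above the Cdyl-Het ratios, as were the levels of Dhrs3 alone. The genes nearest to Dhrs3 over the 6 libraries were Rpl13a (distance 0.0120), which encodes a ribosomal protein, Grik5 (0.0225), a glutamate receptor subunit gene, and Sulf1 (0.0242), which encodes an extracellular heparan sulfatase. Sulf1 was at 30.1, 28.3 and 24.6 in Cdyl-Het, against 41.4, 36.3 and 38.3 in Cdyl-KO, with the libraries in the same order as for Dhrs3 within both groups. That shared order is part of how Sulf1 was picked.

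The pair of retinaldehyde dehydrogenase genes, whose enzymes make retinoic acid, differed in sign. Aldh1a2 (chromosome 9, 71215789 to 71296243, plus strand) was the highest of the 9 in both groups, at or above 96.8% of all genes in mean level. It was at 65.1, 53.2 and 49.6 scaled RPKM in Cdyl-Het, against 71.8, 77.6 and 75.0 in Cdyl-KO. All Cdyl-KO libraries were above all Cdyl-Het libraries, of which replicate 1 was the nearest. The means were 55.98 ± 8.14 and 74.8 ± 2.89 (SD, n = 3 per group; log2 change 0.42, SE 0.10, 95% interval 0.18 to 0.66), with a limma adjusted p of 0.0504, just past the threshold on the side not called. That side depended on the scaling reference, which was chosen with these results known. With another library as the reference for scaling, the adjusted p was 0.0496 (replicate 2 of Cdyl-Het), 0.0499 (replicate 1 of Cdyl-KO) or 0.0476 (replicate 3 of Cdyl-KO), which pass, and 0.0511 (replicate 3 of Cdyl-Het) or 0.0514 (replicate 2 of Cdyl-KO), which do not. With replicate 1 of Cdyl-Het left out it was 0.0126 (0.00133 to 0.134 over 19 alternative fits). Aldh1a2 is among the 2934 genes of highest mean level, whose median log2 change was 0.07.

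Aldh1a1 (chromosome 19, 20492715 to 20643465, plus strand) was at 12.6, 20.1 and 16.9 scaled RPKM in Cdyl-Het, against 12.9, 9.42 and 10.5 in Cdyl-KO. The groups overlapped only through replicate 1 of each, which were nearly equal. The difference, -0.54 on the log2 scale (SE 0.17, 95% interval -0.95 to -0.14), did not pass (limma adjusted p = 0.105), but it passed at 0.0409 with replicate 1 of Cdyl-Het left out and at 0.0427 on unscaled values. Aldh1a7, a close paralog beside it on chromosome 19 that was added after its values were seen, was at 9.06 ± 1.11 and 7.49 ± 0.837 (limma adjusted p = 0.204). How reads shared by such copies were counted is not stated in the sources read here, so the level of Aldh1a1 is uncertain to that extent.

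Within a library, Aldh1a1 over Aldh1a2 was 0.193, 0.379 and 0.340 in Cdyl-Het, against 0.180, 0.121 and 0.140 in Cdyl-KO. Cdyl-Het replicate 1 lay close to Cdyl-KO replicate 1 and far from the other two Cdyl-Het libraries. The sum of both genes was 77.7, 73.3 and 66.5 scaled RPKM in Cdyl-Het, against 84.7, 87.0 and 85.5 in Cdyl-KO, and Aldh1a2 made up 83.8%, 72.5% and 74.6% of it in Cdyl-Het, against 84.7%, 89.2% and 87.8% in Cdyl-KO. The Cdyl-KO sums were all above the Cdyl-Het sums, with a gap between the groups smaller than the range within Cdyl-Het. The breakdown gene over 1 synthesis gene, Cyp26b1 over Aldh1a2, was 0.215, 0.344 and 0.349 in Cdyl-Het, against 0.127, 0.0970 and 0.139 in Cdyl-KO. Its means were 0.303 ± 0.0759 and 0.121 ± 0.0219 (SD, n = 3 per group). Cyp26b1 over the sum of Aldh1a1 and Aldh1a2 was 0.180, 0.249 and 0.261 in Cdyl-Het, against 0.108, 0.0864 and 0.122 in Cdyl-KO. The groups did not overlap in either ratio. These are ratios of RNA levels and no measure of retinoic acid. No test was run on them, since the genes in them were chosen with the results known.

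**Figure D2:**
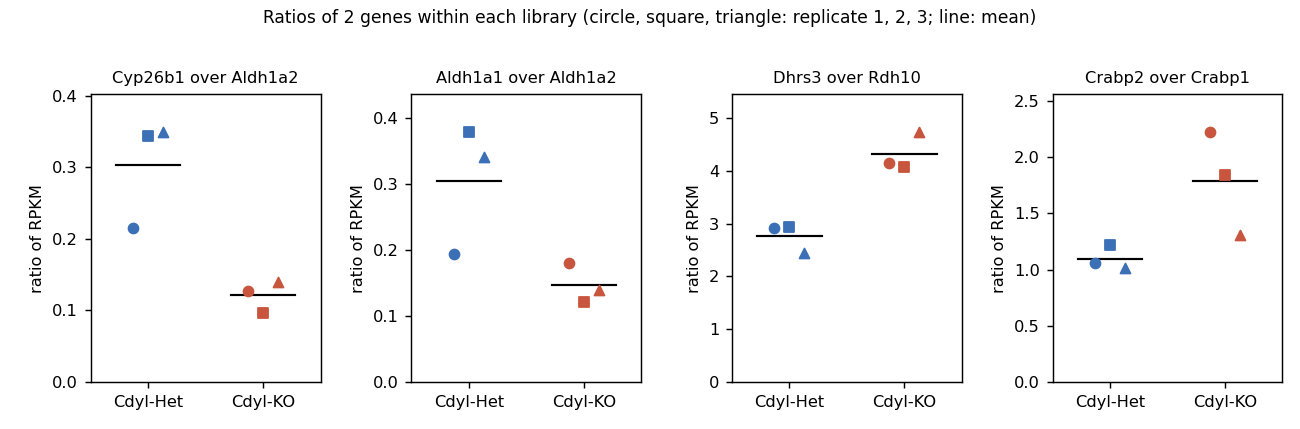
Ratio of RPKM of 2 genes within each library (y axis, linear from 0), for 4 pairs of genes, in 3 Cdyl-Het and 3 Cdyl-KO libraries. Lines are group means. The groups do not overlap in any of the 4 panels, and Cdyl-Het replicate 1 is nearest to Cdyl-KO in the first 2. The pairs were chosen with the results known, and each holds a gene whose own levels did not overlap.

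Of the intracellular binding protein genes, Crabp2 rose and Crabp1 had a change near 0. Crabp2, which delivers retinoic acid to its nuclear receptors (chromosome 3, 87948666 to 87953376, plus strand), was at 11.46, 10.1 and 10.5 scaled RPKM in Cdyl-Het, against 19.0, 19.7 and 13.4 in Cdyl-KO. All Cdyl-KO libraries were above Cdyl-Het, replicate 3 by much less than the other two. The mean rose from 10.7 ± 0.696 to 17.4 ± 3.51 (SD, n = 3 per group; log2 change 0.63, SE 0.14, 95% interval 0.31 to 0.96, limma adjusted p = 0.0396). This was the least stable of the 3 calls: 11 of 19 alternative fits kept it, and of the fits that left out 1 library only that without Cdyl-KO replicate 3 did (0.00942). The adjusted p was 0.0710, 0.115 and 0.128 without Cdyl-Het replicates 1, 2 and 3, and 0.112 and 0.0974 without Cdyl-KO replicates 1 and 2.

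Crabp1, its paralog, which is thought to hold retinoic acid in the cytoplasm (chromosome 9, 54764748 to 54773110, plus strand), was at 10.8, 8.26 and 10.4 in Cdyl-Het, against 8.55, 10.7 and 10.2 in Cdyl-KO. The groups overlapped throughout. The log2 change was 0.00 with a 95% interval of -0.27 to 0.27 (limma adjusted p = 0.990), and its sign turned in 8 of 19 alternative fits, such as -0.13 on unscaled values. Within a library, Crabp2 over Crabp1 was 1.06, 1.22 and 1.01 in Cdyl-Het, against 2.23, 1.84 and 1.31 in Cdyl-KO, without overlap, as for Crabp2 alone. The genes nearest to Crabp2 lay farther off than those nearest to Cyp26b1 and Dhrs3: Mxra8 (distance 0.103), Snord17 (0.113) and Asb4 (0.123).

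Some markers of mesonephric and coelomic epithelium were higher in Cdyl-KO, as were Dhrs3 and Crabp2. For the counts that follow, the shares called over all genes were 4.67% higher and 2.83% lower. Of mesonephric epithelium, 3 of the 6 markers that are listed (of 7) were called higher and 0 lower, with log2 changes from -0.20 to 0.58. Their sums were 46.8 to 55.1 scaled RPKM in Cdyl-Het, against 62.0 to 69.1 in Cdyl-KO. Of coelomic epithelium, 2 of the 4 that are listed (of 5) were called higher and 0 lower, with log2 changes from -0.22 to 0.60. Their sums were 88.2 to 104 and 137 to 145. Interstitial progenitor markers, of which all 8 are listed and 1 rose, overlapped at 112 to 118 and 117 to 125. Of the 3 steroidogenic markers that are listed (of 4) 1 was called lower, with a median log2 change of -0.67 for the 3. The steroidogenic sums were 14.5 to 19.9 and 10.9 to 11.2. The part of these cells in the values of Dhrs3, Crabp2 and Aldh1a2 was not tested.

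The order of mean levels differed between the groups. In Cdyl-Het, Aldh1a2 was followed by Cyp26b1 and Aldh1a1, whose ranges overlapped, then by Crabp2, Crabp1 and Dhrs3, whose neighbours also overlapped, then Rdh11, and last by Stra6 and Rdh10, which overlapped. In Cdyl-KO, Aldh1a2 was followed by Crabp2, Dhrs3, Aldh1a1, Crabp1 and Cyp26b1, each overlapping the next, then by Rdh11, Rdh10 and Stra6. Cyp26b1 thus went from the second place to the sixth and Dhrs3 from the sixth to the third. Rdh11 was separate from its neighbours in both groups.

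None of the 6 receptor genes passed, against 7.50% called in either direction over all genes. At that share, so short a list can hold 0 calls. Cdyl-KO was entirely above Cdyl-Het for 2 receptors and entirely below for 1, against 17.0% and 14.5% of all genes. Rara, with means of 12.3 ± 0.497 and 12.4 ± 1.52 scaled RPKM (SD of 3 libraries), had a log2 change of 0.01 and Rxra, at 8.68 ± 0.389 and 9.33 ± 0.346, one of 0.09 with groups that did not overlap, and both changes turned negative on unscaled values (-0.12 and -0.04). Rxrb was at 7.94, 7.67 and 6.77 in Cdyl-Het, against 8.44, 8.74 and 8.68 in Cdyl-KO, without overlap (log2 change 0.19, limma adjusted p = 0.131). Rarb, Rarg and Rxrg were low, with means of 1.06 to 2.33, and had log2 changes of -0.20, -0.22 and -0.33. Of these, Rxrg did not overlap, by a narrow gap, at 1.61, 1.24 and 1.99 in Cdyl-Het, against 0.898, 1.23 and 1.06 in Cdyl-KO (limma adjusted p = 0.191). Rarb, Rarg and Rxrg are among the 2934 genes of lowest mean level, whose median log2 change was -0.09. Exons of Rarb overlap those of Top2b by 1793 bases on the other strand, and the strand setting of the counting is not stated. None of the 9 coregulator genes, among them Ncor1, Nrip1 and Ep300, passed the threshold (smallest limma adjusted p = 0.243). The share called over all genes was 7.50%, so this list too can hold 0 calls.

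**Figure D3:**
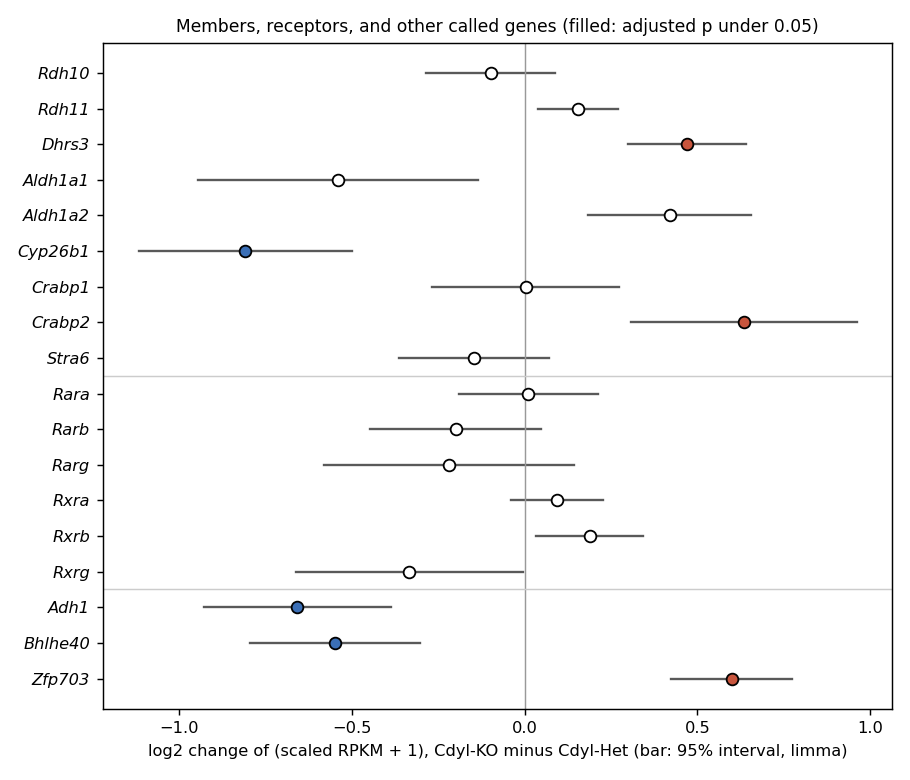
Log2 change of (scaled RPKM + 1), Cdyl-KO minus Cdyl-Het (x axis), with its 95% interval from limma, for the 9 genes (top), the 6 receptor genes (middle) and the other called genes of the pathway and target lists (bottom). Filled symbols passed the threshold. Dhrs3, Crabp2 and Zfp703 lie to the right and Cyp26b1, Adh1 and Bhlhe40 to the left, and no receptor gene is filled.

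Of 45 other genes of the pathway, including these receptors and coregulators, 26 are listed. Of the 26, 1 was lower, 0 were higher and 25 did not pass, against 2.83% lower and 4.67% higher over all genes. Their median log2 change was 0.02. The gene that fell was Adh1, an alcohol dehydrogenase that oxidises retinol (chromosome 3, 138260991 to 138290698, plus strand). It was at 8.39, 12.2 and 10.3 scaled RPKM in Cdyl-Het, against 6.08, 6.16 and 6.00 in Cdyl-KO. The groups were apart, with the Cdyl-KO libraries nearly equal (log2 change -0.66, SE 0.11, limma adjusted p = 0.02001). The adjusted p was 0.0820 without Cdyl-Het replicate 3 and 0.0653, 0.0578 and 0.0594 without Cdyl-KO replicates 1, 2 and 3, and 136 exon bases are shared with an antisense gene. Of those that did not pass, Scarb1, named after its values were seen, was just short of the threshold (log2 change -0.43, limma adjusted p = 0.0531). Cyp26a1, Cyp26c1, Rbp4 and Lrat are not analysed here.

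Of 18 known target genes of retinoic acid, 12 are listed, and some of them, such as Rarb and Nrip1, also stand in the pathway list. Of the 12, 1 rose, 1 fell and 10 did not pass, against 4.67% higher and 2.83% lower over all genes. Their median log2 change was 0.07. Zfp703, a transcriptional repressor gene (chromosome 8, 26977325 to 26981461, plus strand), was at 16.4, 14.9 and 14.5 scaled RPKM in Cdyl-Het, against 23.3, 22.04 and 25.7 in Cdyl-KO. It rose in every Cdyl-KO library (log2 change 0.60, SE 0.07, limma adjusted p = 0.00848) and passed in all 19 alternative fits. Bhlhe40, a transcriptional repressor gene (chromosome 6, 108660629 to 108666925, plus strand), was at 4.26, 5.86 and 5.45 in Cdyl-Het, against 3.15, 3.08 and 3.39 in Cdyl-KO. It was lower in every Cdyl-KO library (log2 change -0.55, SE 0.10, limma adjusted p = 0.0254), but the call was lost without Cdyl-Het replicates 2 (0.0776) and 3 (0.0986) and without Cdyl-KO replicates 1 (0.0776), 2 (0.0727) and 3 (0.0579). Both genes share exon bases with a gene on the other strand. Stra8 is not analysed here, and Rec8, a meiotic cohesin gene named after its values were seen, was at 7.02 ± 1.17 and 9.17 ± 0.587 (log2 change 0.35, limma adjusted p = 0.0910). Rec8 was not the nearest to the threshold of those that did not pass. Nr2f1, also named after its values were seen, was nearer (log2 change 0.34, limma adjusted p = 0.0678).

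**Figure D4:**
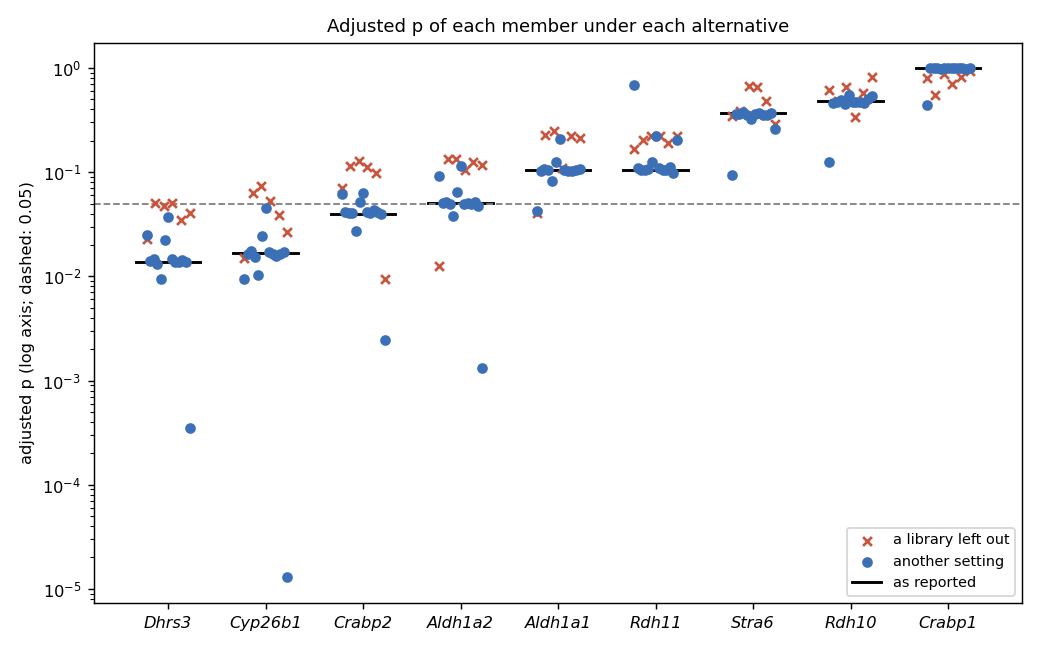
Limma adjusted p (y axis, log scale) of the 9 genes as reported (bar) and under each alternative fit, with crosses for fits that leave out 1 library and dots for other settings. The dashed line is the threshold of 0.05. Dhrs3, Cyp26b1, Crabp2, Aldh1a2 and Aldh1a1 lie on both sides of the line, and Rdh11, Stra6, Rdh10 and Crabp1 never pass. Of the 6 fits that leave out 1 library, 4 passed for Dhrs3, 3 for Cyp26b1 and 1 for Crabp2.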

How the data were processed

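RNA was measured in 3 Cdyl-Het and 3 Cdyl-KO libraries. Per the labels' protocols, RNA was extracted with a Direct-zol MicroPrep kit and libraries were made with a stranded SMARTer kit for small inputs (Pico, v2). The submitters' processing notes name STAR, featureCounts 1.6.4 (Subread) and mm10. The annotation, the strand setting and the gene filter are not given. The authors deposited RPKM values without a header or a stated way of making them, 1 per gene and library. The unit was taken from the values, since 80.6% to 84.4% of them gave whole reads (tolerance 0.02, up to 5000 reads) with GENCODE M21 exon lengths, and 83.5% to 86.2% of the whole reads were even. The length of 4937 bases did not give whole reads for Aldh1a1, but 4934 bases did.

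Values were divided by an unweighted trimmed mean of ratios (30% of ratios and 5% of levels trimmed) with Cdyl-Het replicate 1 as the reference. That reference was taken after results with all 6 were seen. Log2(scaled RPKM + 1), with a pseudocount that understates changes of low genes, was fitted with limma 3.58.1 (R 4.3.3; group as the only term, empirical Bayes with trend) and adjusted by Benjamini-Hochberg over 11736 genes, with no further filter. A count model was planned in case of counts and was not used. Every gene had a mean deposited value of at least 1.005 in a group. The median log2 change of all genes was 0.00, against -0.12 without scaling. After scaling, the median still differed with level, from -0.09 in the 2934 genes of lowest mean level to 0.07 in the 2934 of highest. Aldh1a2 and Crabp2, with positive changes, and Cyp26b1 and Aldh1a1, with negative ones, are among those of highest level.

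Members, lists and rules were chosen with earlier results of these data known. Named are all members, the receptors, list genes past the threshold, and the 3 genes nearest to each called member with a mean of at least 5. Positions are those of GENCODE M21 (98.3% of symbols matched). Exon bases shared with another gene are stated for the receptors and the called list genes. Nr2f1, Ncor1 and Ep300, which are named without this, also share exon bases with other genes. The procedure was tested on simulated data. The deviations of same-numbered libraries from their group means had correlations of -0.05, -0.27 and -0.05. These values gave no sign of pairing but cannot exclude it, and the labels do not state it.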

Additional observations from a re-analysis of the deposited data

How the results depend on the processing

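Among 333 refits of single genes (the 9 genes, receptors and called list genes), 290 kept both direction and call, 23 lost and 8 gained a call and 12 changed sign, none of the latter called. Over all genes, 548 were higher and 332 lower. Without scaling these counts were 305 and 1558, with the replicate number as a block 209 and 128, and leaving out 1 library gave 197 to 387 higher and 56 to 260 lower. With only genes of mean at least 5, 202 were lower, and with voom on the implied whole reads of 7738 genes 657 were higher and 531 lower. Whole reads in all 6 libraries (tolerance 0.05) were had for 67.1% of matched genes, without Aldh1a1. The voom fit and the other 5 scaling references were added after seeing the data. Of the 9 genes, 2 were higher and 1 lower. Without scaling 1 was higher (Dhrs3) and 2 lower (Cyp26b1, Aldh1a1), without trend 1 was higher, with the replicate block 1 was higher, and leaving out 1 library gave 0 to 2 higher and 0 to 2 lower. Crabp2 had an adjusted p of 0.0622 without scaling, 0.0523 without trend and 0.0638 with the replicate block, and Bhlhe40 one of 0.0545 with the block, which changed no other call among the single genes. Aldh1a2 passed with the filter (0.0379) and with voom (0.00133).

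The sign of Crabp1 turned without scaling (-0.13), with median-of-ratios scaling (-0.0023), with replicate 2 of Cdyl-Het (-0.0007) or replicates 1 (-0.0012) and 2 (-0.0018) of Cdyl-KO as the reference, and in 3 of 6 fits that left out 1 library, which ranged from -0.11 to 0.091. Rara turned without scaling (-0.12) and in 2 of 6 fits that left out 1 library (-0.078 to 0.078), and Rxra without scaling (-0.038). The causes were not tested. Where 1 library is left out, 1 group has 2 libraries. The number of libraries limits precision: the 95% interval of Stra6, for example, was -0.36 to 0.07.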
